A study of Mus musculus with 14 samples.

Results

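The p53-induced apoptosis genes are transcriptional targets through which p53 can commit a damaged cell to death. The names fixed were *Bax*, *Bbc3*, *Pmaip1*, *Fas*, *Tnfrsf10b*, *Eda2r*, *Perp*, *Aen*, *Apaf1* and *Trp53inp1*. All 10 were found by symbol among the 54532 genes of the count table. All 10 passed the filter on low counts, which kept 16034 genes. They were followed in heart RNA from 14 wild-type male C57BL/6J mice, 8 weeks old at the start, 1 library per mouse. The irradiated mice had been anesthetized with pentobarbital sodium and given 30 Gy of cobalt γ-rays to the anterior chest, with the rest of the body shielded by lead. Hearts were taken after 1 day from 3 irradiated (IRR_1d) and 3 control mice (Control_1d), and after 6 weeks from 4 irradiated (IRR_6w) and 4 control mice (Control_6w). The question was which of these genes differed with irradiation early, late or at both times, in cardiac tissue that contains many cell types. The methods do not say whether the control mice were anesthetized.

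After DNA damage, p53 is stabilized and binds response elements in its target genes. Some targets permeabilize mitochondria. BBC3 (PUMA) and PMAIP1 (NOXA) are BH3-only proteins that relieve the inhibition of effectors such as BAX, and cytochrome c released from mitochondria then drives APAF1 to form the apoptosome that activates caspase-9. Other targets are receptors of the tumor necrosis factor receptor family (FAS, TNFRSF10B, EDA2R), a plasma membrane protein (PERP), a nuclease (AEN) and a nuclear cofactor of p53 that also acts in autophagy (TRP53INP1). The adult heart is known as a tissue that resists this death program.

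Library totals ranged from 13336746 to 16837265 counts. Levels are given as CPM, the count scaled to library size, with library sizes adjusted by the trimmed mean of M values (TMM), whose factors ranged from 0.727 to 1.25. The cardiomyocyte markers (8 genes, *Myh6* and *Tnnt2* among them) were detected in all 14 libraries, with none at 0 counts. Their sum ranged from 4840 to 42850 CPM, and the library with the lowest sum, Control_6w replicate 3, stood apart. Its 6 thymocyte markers (*Rag1*, *Ptcra* and others) summed to 2686 CPM against at most 40.2 CPM in the other 13 libraries, and its 6 T cell markers to 1748 CPM against at most 26.1 CPM. IRR_6w replicate 1 carried 421 CPM of lung epithelium markers (at most 28.4 CPM elsewhere) and 2818 CPM of atrial markers, and IRR_1d replicate 3 carried 1166 CPM of atrial markers (at most 535 CPM elsewhere, in Control_1d replicate 2). Brown fat markers (5 genes) summed to 734, 1070 and 402 CPM in these 3 libraries, in the order named, and to at most 142 CPM in the others. B cell markers (5 genes) summed to 620 CPM in IRR_6w replicate 1, 365 CPM in Control_6w replicate 3 and 255 CPM in Control_1d replicate 1. Elsewhere they summed to at most 42.8 CPM. Testis germ cell markers (7 genes) summed to 43.9, 31.1 and 20.1 CPM in Control_6w replicates 1, 2 and 3 and to at most 0.301 CPM in the other 11 libraries. *Mael*, *Tssk2* and *Prm1* were detected in those 3 controls, and *Prm2*, *Tnp1* and *Ldhc* were at 0 counts there. In Control_1d replicate 1 and IRR_6w replicate 3, 37.6% and 29% of the genes with a mean of 2 to 5 CPM were at 0 counts, followed by IRR_6w replicate 4 with 14%, Control_6w replicate 1 with 7.66% and at most 4.15% in the other libraries. Below, the 3 libraries with transcripts of other tissues are Control_6w replicate 3, IRR_6w replicate 1 and IRR_1d replicate 3, chosen for their thymus, lung, atrial and brown fat transcripts and not for those of testis, and the 4 libraries with many genes at 0 counts are the 4 named last. Leaving out these 4 keeps only replicates 1 and 2 of IRR_6w and makes both control groups smaller. The parts of smaller groups and of library quality in that fit were not told apart. In bulk tissue, fewer cells of a type and less RNA per cell cannot be told apart.

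At 1 day, 9 of the 10 genes had a positive log2 fold change, and at 6 weeks 7 of 10. The median log2 fold change of the 10 genes was 1.80 at 1 day and 0.60 at 6 weeks, beside 0.06 and -0.09 for all 16034 genes. Without Control_6w replicate 3 the 6-week median was 1.26, with 8 of 10 positive, beside 0.0081 for all genes then tested, and at 1 day the median ranged from 1.2998 (without Control_1d replicate 1) to 2.24 (without Control_1d replicate 3). In edgeR's quasi-likelihood test, adjusted over all genes and with a fold limit of 2, none of the 10 (0) passed at 1 day, where 0.0249% of all genes passed. One gene, *Eda2r*, passed at 6 weeks (1 of 10, background 0.256%). With the irradiation effect averaged over both times, *Eda2r* and *Bax* passed (2 of 10, background 0.281%).

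With the fold limit kept but p left unadjusted (under 0.05), 6 of 10 passed at 1 day (background 2.23%), 5 at 6 weeks (background 5.43%) and 4 for the average (background 3.58%). The 6 genes at 1 day were *Bax*, *Bbc3*, *Pmaip1*, *Eda2r*, *Aen* and *Trp53inp1*. At 6 weeks the 5 genes were *Bax*, *Pmaip1*, *Tnfrsf10b* and *Eda2r*, all higher in irradiated hearts, and *Fas*, which was lower. DESeq2 with adjusted p called 2 of 10 at 1 day (*Bax* and *Eda2r*, background 0.191%), 4 at 6 weeks (*Bax*, *Pmaip1*, *Tnfrsf10b* and *Eda2r*, background 2.11%) and 4 for the average (again *Bax*, *Pmaip1*, *Tnfrsf10b* and *Eda2r*, background 1.29%).

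Counted without a model, every irradiated library was above every control library for 7 of the 10 genes at 1 day (background 6.52%) and for 4 at 6 weeks (background 4.08%). *Bax*, *Pmaip1* and *Eda2r* met this at both times (3 of 10, background 0.761%). None (0 of 10) was lower without overlap at 1 day (background 4.14%), and *Fas* was at 6 weeks (1 of 10, background 1.64%). At 6 weeks the macrophage and monocyte markers also differed, with 7 of 8 markers positive, 1 passing the test (*Ccr2*, a monocyte chemokine receptor, 3.49, SE 0.569, edgeR adjusted p = 0.025), and sums of 244 to 622 CPM in Control_6w against 1029 to 1344 CPM in IRR_6w. No marker of that list was at 0 counts in any library of 6 weeks. At 1 day these sums overlapped (568 to 854 CPM in Control_1d, 599 to 695 CPM in IRR_1d). Fibroblast markers were also separate at 6 weeks, with sums of 813 to 1935 CPM in Control_6w against 2018 to 2688 CPM in IRR_6w (4 of 5 positive, 0 passing in edgeR). The cardiomyocyte markers were all negative at 6 weeks (0 of 8 positive, median log2 fold change -0.74, 0 passing in edgeR), with overlapping sums of 4840 to 42850 CPM in Control_6w and 7890 to 30180 CPM in IRR_6w. At 1 day the endothelial marker sums did not overlap, 1227 to 1407 CPM in Control_1d against 871 to 1049 CPM in IRR_1d (1 of 5 positive, 0 passing in edgeR). The T cell marker sums, low in both groups, did not overlap either, 3.12 to 8.70 CPM in Control_1d against 1.67 to 2.84 CPM in IRR_1d (1 of 6 positive, median log2 fold change -2.81, 0 passing in edgeR). Other marker sums overlapped at 1 day, with 0 passing in edgeR. These were fibroblast (5 of 5 positive, median log2 fold change 0.62), atrial (4 of 4, 1.10), brown fat (4 of 5, 2.39) and B cell markers (0 of 5, -3.05). The part of these cell types in the differences of the 10 genes was not tested.

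**Figure D1:**
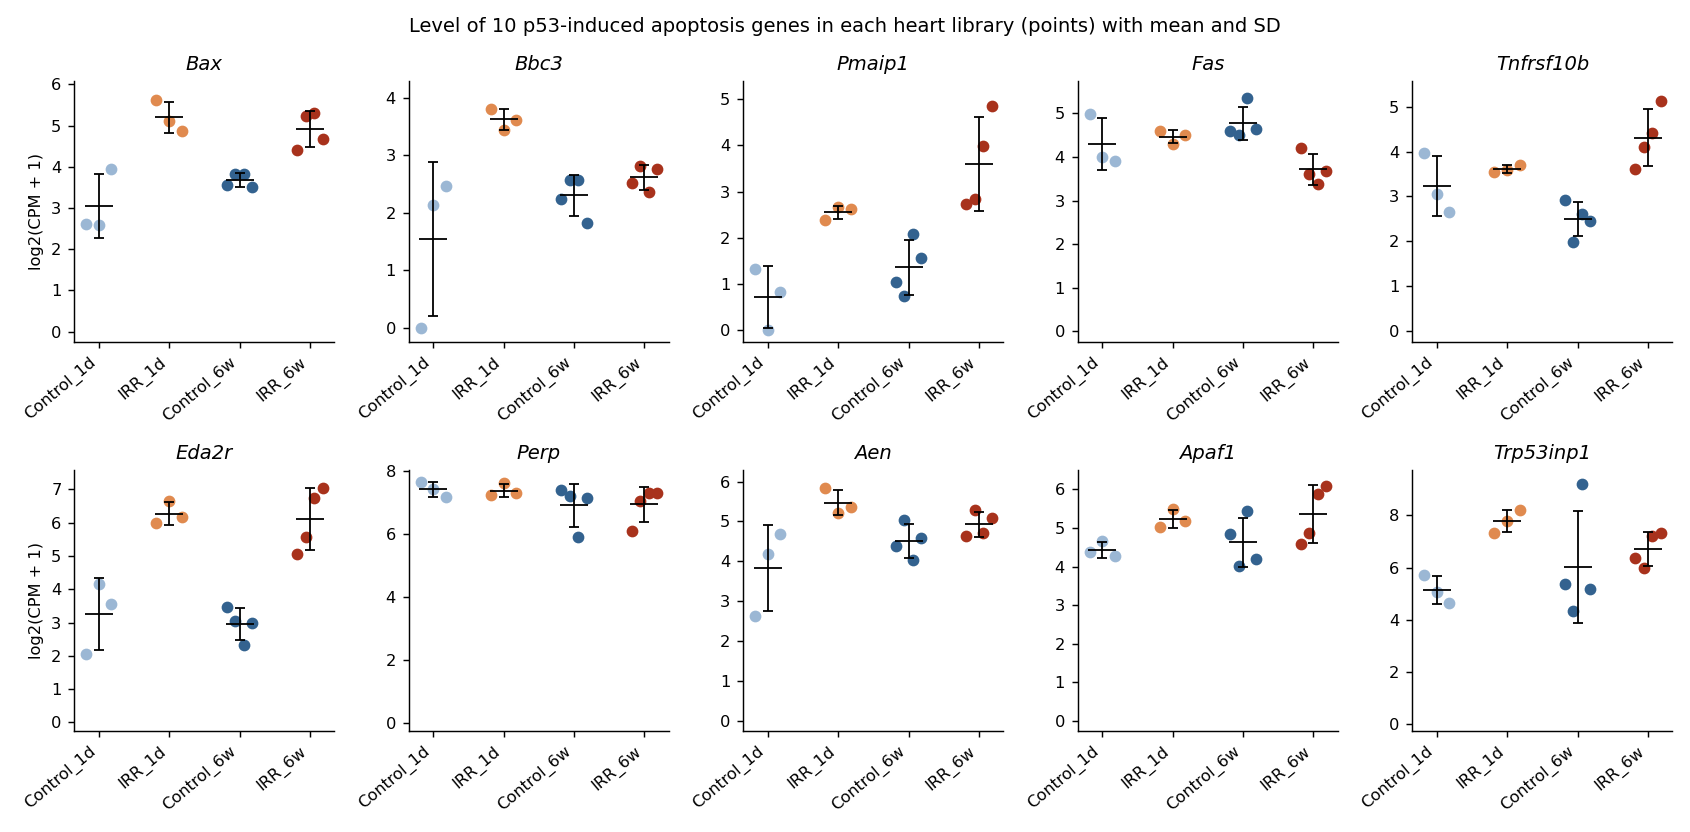
Level of each gene in the 14 heart libraries. Each point is a library, on the y axis as log2(CPM + 1) with TMM scaling, by group on the x axis, and bars give the mean and SD. The irradiated and control points of Bax, Pmaip1 and Eda2r are separate at both times, the points of Perp overlap between all 4 groups, and a single Control_6w library reaches 582 CPM in Trp53inp1.

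*Bax* encodes an effector that forms pores in the outer mitochondrial membrane. It lies at chr7:45461697-45466898 (mm10, minus strand), and an overlapping gene model on the same strand, *Gm45808*, covers 192 of its 1576 exonic bases (12.2%). Its level was 5.13, 5.03 and 14.5 CPM in Control_1d and 48, 33.7 and 28.2 CPM in IRR_1d. At 6 weeks the control libraries held 10.8, 13.3, 13.2 and 10.5 CPM and the irradiated libraries 20.3, 36.7, 38.7 and 24.7 CPM. The lowest irradiated library thus lay above the highest control library at each time, and the 4 Control_6w libraries were within 3 CPM of each other. The group means were 8.23 ± 5.46, 36.6 ± 10.2, 11.9 ± 1.51 and 30.1 ± 8.98 CPM (SD, n = 3, 3, 4 and 4, in the order Control_1d, IRR_1d, Control_6w, IRR_6w). At 1 day the log2 fold change was 2.15 (SE 0.424, edgeR adjusted p = 0.31, 8th smallest p of all genes) and at 6 weeks 1.33 (SE 0.357, edgeR adjusted p = 0.153). Without Control_1d replicate 3 the 1-day change was 2.88 and passed (edgeR adjusted p = 0.0315). The lowest 1-day value with 1 library left out was 1.90, without Control_1d replicate 1. Averaged over both times, *Bax* rose by 1.74 (SE 0.277, edgeR adjusted p = 0.0164). The same average on log2(CPM + 1) had p = 0.00143 in a two-sided exact permutation test within time points, the smallest that its 1400 assignments can give. The averaged call was lost without Control_1d replicate 1 (1.62, adjusted p = 0.0525), without Control_1d replicate 2 (1.61, adjusted p = 0.0881) and without the 4 libraries with many genes at 0 counts (1.56, adjusted p = 0.341). Without the 3 Control_6w libraries with testis transcripts, which leaves 1 control of 6 weeks that is assumed to vary like the other groups, it was 1.83 (edgeR adjusted p = 0.878).

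The region in front of *Bax* is shown because p53 acts through response elements near its targets. RefSeq windows of 300 bases (250 before and 50 after a transcript start, GRCm38.p6) were at hand for 6 of the 10 genes, 9 windows in all. They were searched for the 10-base p53 consensus decamer, which reads the same on both strands, and for pairs of decamers with at most 2 mismatches in all and at most 13 bases between them. An exact decamer was present in 8.36% of all 32851 windows and such a pair in 4.09%. *Bax* and *Aen* held an exact decamer (2 of 6 genes), in the only window of *Bax* and in both windows of *Aen*, and *Bax* held a pair. These counts are of genes, whereas the shares above are of windows, so they are not directly comparable. The 250 bases before the *Bax* start (chr7:45466899-45467148, minus strand, no annotated exon) follow, with the pair of decamers in capitals, at -216 to -192 from the start with 5 bases between them and 2 mismatches.
Bax: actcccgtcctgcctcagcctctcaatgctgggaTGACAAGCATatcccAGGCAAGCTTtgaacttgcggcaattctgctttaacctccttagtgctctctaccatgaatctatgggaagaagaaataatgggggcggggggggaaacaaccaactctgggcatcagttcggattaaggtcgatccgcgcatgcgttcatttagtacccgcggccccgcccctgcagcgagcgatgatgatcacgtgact

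The second decamer, at -201 to -192, is the exact one. It also forms a pair with the next decamer, which ends at -181, with 1 base between them and 2 mismatches. No occupancy by p53 was measured here, and a match is only a description of the letters.

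*Bbc3* and *Pmaip1* are the BH3-only genes. *Bbc3* (chr7:16308393-16318205, plus strand) was at 0, 3.42 and 4.54 CPM in Control_1d and at 13, 9.94 and 11.4 CPM in IRR_1d. The value of 0 came from Control_1d replicate 1, the library with 37.6% of comparable genes at 0 counts, so the limit of 3 counts that counting alone allows is too low there. After 6 weeks the levels were 3.72, 4.97, 4.95 and 2.56 CPM in controls and 4.71, 6.07, 4.13 and 5.83 CPM in irradiated hearts. The groups were separate at 1 day and overlapped at 6 weeks. Its log2 fold change was 2.11 at 1 day (95% confidence interval 0.04 to 4.19, edgeR adjusted p = 1, unadjusted p = 0.0467) and 0.36 at 6 weeks (-1.37 to 2.08, edgeR adjusted p = 0.932). Without Control_1d replicate 1 the 1-day value was 1.52, and without Control_6w replicate 4 the 6-week value was 0.17. The difference between the effects at both times did not pass.

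*Pmaip1* (on chromosome 18, plus strand) had 24, 0 and 10 counts in Control_1d and 66, 62 and 78 counts in IRR_1d. At 6 weeks it had 14, 9, 57 and 29 counts in Control_6w and 98, 102, 233 and 587 counts in IRR_6w. Scaled to CPM, the means were 0.757 ± 0.751, 4.90 ± 0.574, 1.74 ± 1.14 and 13.6 ± 10.4 (SD, n = 3, 3, 4 and 4). No control library reached an irradiated one at either time, and the 4 IRR_6w libraries spread from 5.63 to 27.8 CPM. For *Pmaip1* the log2 fold change was 2.65 at 1 day (SE 0.986, edgeR adjusted p = 1), 2.96 at 6 weeks (SE 0.85, edgeR adjusted p = 0.196) and 2.80 averaged (SE 0.654, edgeR adjusted p = 0.124). In DESeq2 the 6-week change passed (2.95, adjusted p = 0.00379). In edgeR the 6-week value of *Pmaip1* was 1.59 without the 4 libraries with many genes at 0 counts. The exact permutation p was 0.0286 at 6 weeks, the smallest for 4 against 4 mice, and 0.00143 for both times. All 4 IRR_6w libraries of *Pmaip1* also lay above the 3 IRR_1d libraries, with a log2 fold change of 1.47 between them (SE 0.886, edgeR adjusted p = 0.995).

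*Apaf1* encodes the scaffold of the apoptosome (chr10:90989311-91082770, minus strand). It was at 19.7, 24.3 and 18.2 CPM in Control_1d and at 31.4, 43.9 and 35.4 CPM in IRR_1d. At 6 weeks it was at 28.0, 15.2, 42.0 and 17.4 CPM in controls and 22.9, 28.2, 57.9 and 67.6 CPM in irradiated hearts. The 1-day groups were separate, whereas at 6 weeks Control_6w replicate 3, the library with thymocyte transcripts, lay above 2 of the 4 irradiated libraries and Control_6w replicate 1 above 1 of them. In edgeR the log2 fold change of *Apaf1* was 0.83 at 1 day (SE 0.437, edgeR adjusted p = 1) and 0.78 at 6 weeks (SE 0.377, edgeR adjusted p = 0.588), both short of the fold limit. The 6-week value of *Apaf1* was 1.13 without Control_6w replicate 3 and 0.50 without IRR_6w replicate 4. It was 1.34 without the 3 libraries with transcripts of other tissues and 0.0555 without the 4 with many genes at 0 counts.

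*Eda2r*, a receptor for the A2 form of ectodysplasin, had the largest log2 fold change of the 10 genes at each time with all libraries in the fit. Without Control_1d replicate 1 its 1-day value was 2.49, below *Pmaip1* (3.58) and *Trp53inp1* (3.01), and without Control_6w replicate 3 its 6-week value was 3.28, below *Pmaip1* (3.45). *Eda2r* lies on the X chromosome (chrX:97333840-97377216, minus strand). In Control_1d it was at 3.13, 16.9 and 10.8 CPM and in IRR_1d at 62.4, 100 and 70.6 CPM. In Control_6w it was at 10.03, 7.26, 3.98 and 6.996 CPM and in IRR_6w at 32.5, 46.7, 106 and 131 CPM. The lowest irradiated library, IRR_6w replicate 1, was above the highest control library of either time. The group means were 10.3 ± 6.89, 77.7 ± 19.8, 7.07 ± 2.47 and 78.9 ± 46.9 CPM (SD, n = 3, 3, 4 and 4). *Eda2r* rose by 3.48 at 6 weeks (SE 0.542, 11.2-fold, edgeR adjusted p = 0.0188) and by 3.20 averaged over both times (SE 0.412, edgeR adjusted p = 0.00648, 3rd smallest p of all genes). At 1 day the log2 fold change was 2.93 (SE 0.611, 7.6-fold, edgeR adjusted p = 0.365). IRR_6w and IRR_1d differed by 0.02 (95% confidence interval -1.11 to 1.15), so that changes within that interval remain compatible with these data.

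The averaged call of *Eda2r* was kept when each library was left out in turn. The 6-week call was lost in 5 of these 14 fits, when the library left out was replicate 1, 2 or 4 of Control_6w, or replicate 3 or 4 of IRR_6w, with adjusted p from 0.0564 to 0.115 and log2 fold changes from 3.13 to 3.67. The 6-week call was also lost with the replicate number as a block in the fit. Without the 4 libraries with many genes at 0 counts, which keeps only replicates 1 and 2 of IRR_6w, the 6-week value was 2.72 (adjusted p = 0.432). Without the 3 libraries with transcripts of other tissues the 6-week value was 3.54 (adjusted p = 0.0105). Without the 3 Control_6w libraries with testis transcripts, *Eda2r* was at 3.46 at 6 weeks (edgeR adjusted p = 1) and 3.1996 averaged (edgeR adjusted p = 0.419), and no gene of all those tested (0) passed in either comparison.

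The *Eda2r* window held neither an exact p53 decamer nor a pair within these limits, which says only that these letters are not in this stretch. It held TATAAA (searched on both strands, present in 13.6% of all windows), in capitals below at -58 to -53 and on the strand of the gene. The bases shown lie before the first annotated exon (chrX:97377217-97377459, minus strand).
Eda2r: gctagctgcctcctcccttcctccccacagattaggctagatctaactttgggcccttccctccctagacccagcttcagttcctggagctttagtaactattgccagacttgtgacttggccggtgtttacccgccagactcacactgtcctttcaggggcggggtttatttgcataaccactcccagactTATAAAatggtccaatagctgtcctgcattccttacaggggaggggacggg

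*Fas*, the receptor of FAS ligand (chr19:34290659-34327770, plus strand), went the other way at 6 weeks. Its level was 30.7, 14.9 and 14.1 CPM in Control_1d and 23.1, 18.7 and 21.6 CPM in IRR_1d, with overlap. It was 23.1, 21.9, 39.7 and 23.95 CPM in Control_6w and 17.4, 11.2, 9.34 and 11.8 CPM in IRR_6w. All 4 irradiated libraries of 6 weeks lay below all 4 controls. On the log2 scale *Fas* differed by 0.09 at 1 day (SE 0.362, edgeR adjusted p = 1) and -1.13 at 6 weeks (SE 0.317, edgeR adjusted p = 0.18, exact permutation p = 0.0286). The highest control, Control_6w replicate 3, carried the thymocyte transcripts, and without it the 6-week value of *Fas* was -0.88. When scaled by library totals instead of TMM, the groups of *Fas* at 6 weeks had an exact permutation p of 0.0571. At 1 day its sign turned to -0.06 without Control_1d replicate 2 and to -0.08 without Control_1d replicate 3.

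*Tnfrsf10b* encodes the mouse death receptor for TRAIL (chr14:69767472-69784411, plus strand). It was at 14.6, 7.34 and 5.31 CPM in Control_1d and at 10.7, 10.97 and 12.1 CPM in IRR_1d, the irradiated libraries lying between the controls. At 6 weeks the controls were at 6.54, 2.98, 5.06 and 4.51 CPM and the irradiated libraries at 11.1, 16.2, 20.5 and 33.8 CPM, with no overlap. The log2 fold change was 0.31 at 1 day (SE 0.47, edgeR adjusted p = 1) and 2.09 at 6 weeks (SE 0.423, edgeR adjusted p = 0.0597), just outside the limit of 0.05. The 6-week change passed in DESeq2 (2.10, adjusted p = 0.000188), without a filter on low counts (2.07, edgeR adjusted p = 0.0308), without IRR_6w replicate 1 (2.30, adjusted p = 0.0298), without Control_1d replicate 1 (2.09, adjusted p = 0.0399) and without the 3 libraries with transcripts of other tissues (2.33, adjusted p = 0.039). Its lowest 6-week value with 1 library left out was 1.74, without IRR_6w replicate 4. At 1 day its value was 0.0673 without Control_1d replicate 3 and 0.83 without Control_1d replicate 1.

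*Fas* and *Tnfrsf10b*, both receptors with a death domain, thus had log2 fold changes of opposite sign at 6 weeks. The change in irradiation effect (6 weeks minus 1 day) was 1.79 for *Tnfrsf10b* (SE 0.626, unadjusted p = 0.0125), -1.21 for *Fas* (SE 0.48, unadjusted p = 0.0239) and -3.25 for *Trp53inp1* (SE 1.29, unadjusted p = 0.024), each with an edgeR adjusted p of 0.99. Without Control_6w replicate 3 the value of *Trp53inp1* was -0.83. That of *Tnfrsf10b* was 1.26 without Control_1d replicate 1 and 0.91 without the 4 libraries with many genes at 0 counts. No gene of the 10 passed this test after adjustment (0 of 10, background 0%), and 3 passed without it (background 2.86%). DESeq2 called 0 of 10 (background 0.222%).

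The ligands of these receptors were named for their role and not by the rule for the other genes. *Fasl* had 0 to 27 counts per library and was not tested. *Tnfsf10* (TRAIL) was at 36.0 ± 2.64 and 30.8 ± 2.65 CPM in Control_1d and IRR_1d and at 37.9 ± 12.8 and 34.0 ± 12.4 CPM in Control_6w and IRR_6w (SD, n = 3, 3, 4 and 4). *Eda*, whose A2 splice form binds EDA2R, was at 6.91 ± 2.06, 7.70 ± 2.12, 5.11 ± 0.813 and 5.56 ± 1.66 CPM in the same order. Its forms were not separated in these gene counts.

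**Figure D2:**
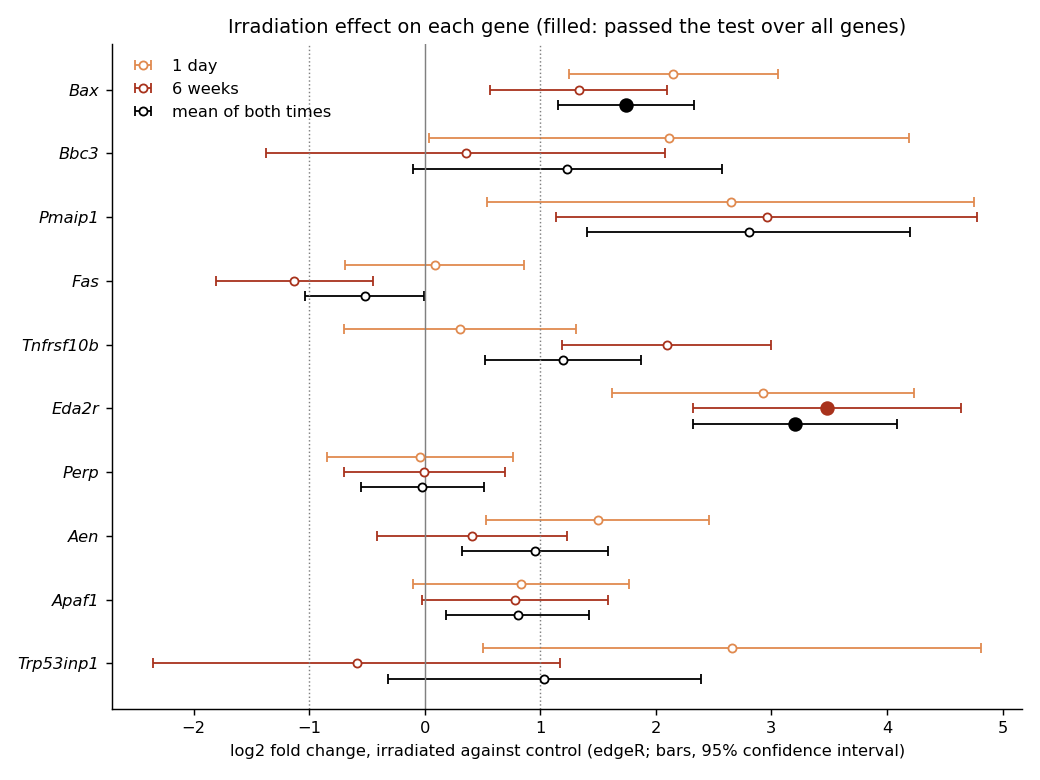
Log2 fold change of irradiated against control hearts for each gene at 1 day, at 6 weeks and averaged, with 95% confidence intervals from edgeR. Filled points passed the test over all genes (Eda2r at 6 weeks and averaged, Bax averaged), dotted lines mark the fold limit of 2, and the interval of Perp spans 0 in all 3 comparisons.

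*Perp*, a tetraspan membrane protein of desmosomes, had the highest mean level of the 10 per transcript length in each group (chr10:18845020-18857073, plus strand). It was at 202, 171 and 145 CPM in Control_1d and at 151, 197 and 157 CPM in IRR_1d. At 6 weeks it was at 169, 148, 59.4 and 141 CPM in controls and at 68.4, 131, 159 and 159 CPM in irradiated hearts. Its lowest values fell in Control_6w replicate 3 and IRR_6w replicate 1, which also had the lowest cardiomyocyte marker sums, 4840 and 7890 CPM. The part of these libraries' tissue makeup in them was not tested. The log2 fold change was -0.04 at 1 day (95% confidence interval -0.84 to 0.77) and 0.00 at 6 weeks (-0.70 to 0.69). At this depth and group size, changes within these intervals remain compatible with the data. Its sign changed with the scaling and with single libraries.

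*Aen*, the apoptosis-enhancing nuclease (chr7:78895854-78911209, plus strand), was at 5.196, 17.1 and 24.8 CPM in Control_1d and at 56.1, 36.1 and 40.3 CPM in IRR_1d. At 6 weeks the controls were at 19.9, 31.9, 15.4 and 22.8 CPM and the irradiated libraries at 23.6, 37.9, 25.1 and 33.0 CPM. The groups were separate at 1 day and overlapped at 6 weeks. The log2 fold change of *Aen* was 1.495 at 1 day (SE 0.453, edgeR adjusted p = 1, unadjusted p = 0.00506) and 0.41 at 6 weeks (SE 0.384, edgeR adjusted p = 0.814, and 0.265 without Control_6w replicate 3). The exact p53 decamer of *Aen* lies within an annotated exon, at 11 to 20 after 1 of its RefSeq starts and -121 to -112 before the other. It is shown in capitals with 10 bases on each side (chr7:78895927-78895956, plus strand, annotated as UTR and exon of *Aen*).
Aen: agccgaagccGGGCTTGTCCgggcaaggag

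*Trp53inp1*, the p53 cofactor (chr4:11156431-11174379, plus strand), was at 51.4, 32.3 and 23.9 CPM in Control_1d and at 161, 222 and 295 CPM in IRR_1d, without overlap. The log2 fold change at 1 day was 2.66 (SE 1.01, edgeR adjusted p = 1). At 6 weeks 3 controls were at 41.0, 19.4 and 35.2 CPM, and Control_6w replicate 3, with its thymocyte transcripts, was at 582 CPM. The 4 irradiated libraries were at 82.7, 61.6, 146 and 160 CPM, above those 3 controls and below the fourth. With all libraries the 6-week log2 fold change was -0.59 (SE 0.822, edgeR adjusted p = 0.882). Without Control_6w replicate 3 it was 1.82 (SE 0.408, adjusted p = 0.0842), and the average over both times was 2.24 (SE 0.299, adjusted p = 0.00539). Without the 3 libraries with transcripts of other tissues the 6-week value of *Trp53inp1* was 1.94 (adjusted p = 0.0446). With only Control_6w replicate 3 left out, the fit, which takes 1 spread for the 4 groups, also gave its 1-day change a smaller SE. That 1-day change passed (2.65, SE 0.437, adjusted p = 0.0476).

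**Figure D3:**
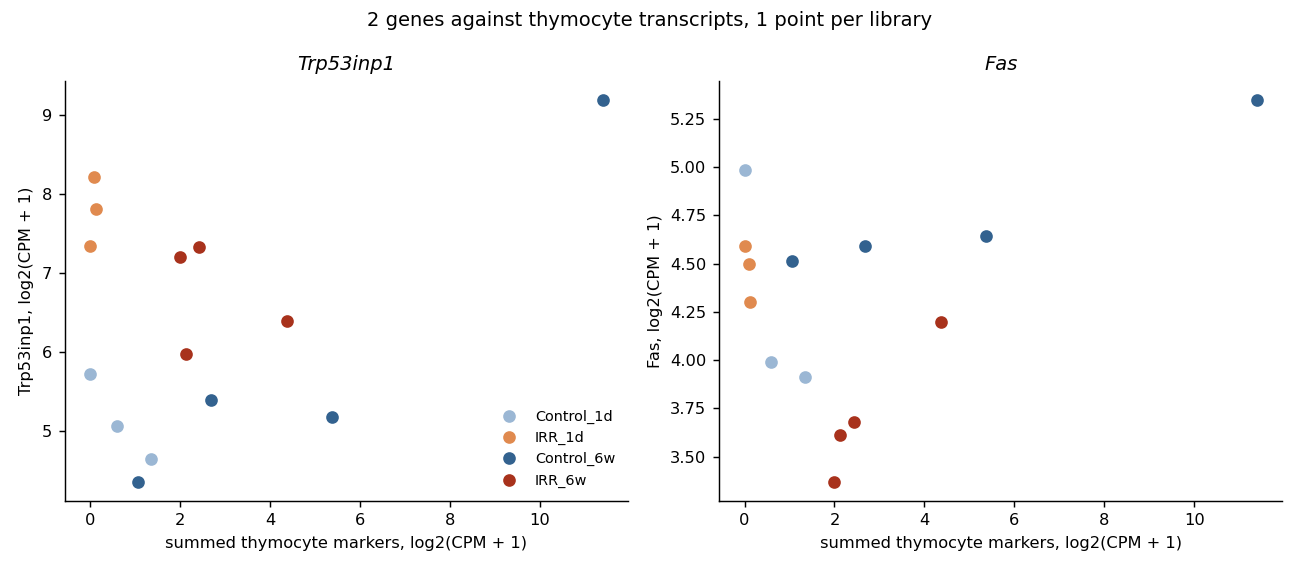
Trp53inp1 (left) and Fas (right) against the summed level of 6 thymocyte markers, both as log2(CPM + 1), 1 point per library. Control_6w replicate 3 lies alone at 2686 CPM of thymocyte markers and is the highest library for both genes, with 582 and 39.7 CPM.

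Per kilobase of transcript (FPKM from the TMM-scaled values and the deposited lengths), the order of the mean levels differed between control and irradiated hearts. In Control_1d, *Perp* led with 88.5 ± 14.7 FPKM, followed by *Fas* (11.04 ± 5.197), *Trp53inp1* (5.54 ± 2.18), *Bax* (5.22 ± 3.47), *Aen* (2.70 ± 1.70), *Apaf1* (2.30 ± 0.352), *Eda2r* (1.74 ± 1.17), *Tnfrsf10b* (1.67 ± 0.895), *Bbc3* (1.25 ± 1.11) and *Pmaip1* (0.286 ± 0.284, FPKM, SD, n = 3). Below *Perp*, all neighbors in this order overlapped, and the mean of *Bbc3* includes the 0 of Control_1d replicate 1. In IRR_1d, *Trp53inp1* (35.0 ± 10.4 FPKM), *Bax* (23.3 ± 6.48) and *Eda2r* (13.2 ± 3.36) stood between *Perp* (86.1 ± 12.8) and *Fas* (11.7 ± 1.25, n = 3) by their means. The libraries of *Trp53inp1* and *Bax* overlapped there, as did those of *Eda2r* and *Fas*.

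In IRR_6w the order after *Perp* (66.2 ± 21.8 FPKM) was *Bax* (19.1 ± 5.70), *Trp53inp1* (17.4 ± 7.39), *Eda2r* (13.4 ± 7.96) and *Fas* (6.90 ± 1.91), and *Bbc3* was last (2.44 ± 0.434, SD, n = 4). Only *Perp* and *Bax* were separate among the neighbors there. In Control_6w, *Eda2r* was eighth of the 10 at 1.20 ± 0.420 FPKM and *Pmaip1* last at 0.656 ± 0.429 FPKM (n = 4). In Control_6w replicate 3, *Trp53inp1* (89.9 FPKM) lay above *Perp* (30.4 FPKM).

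**Figure D4:**
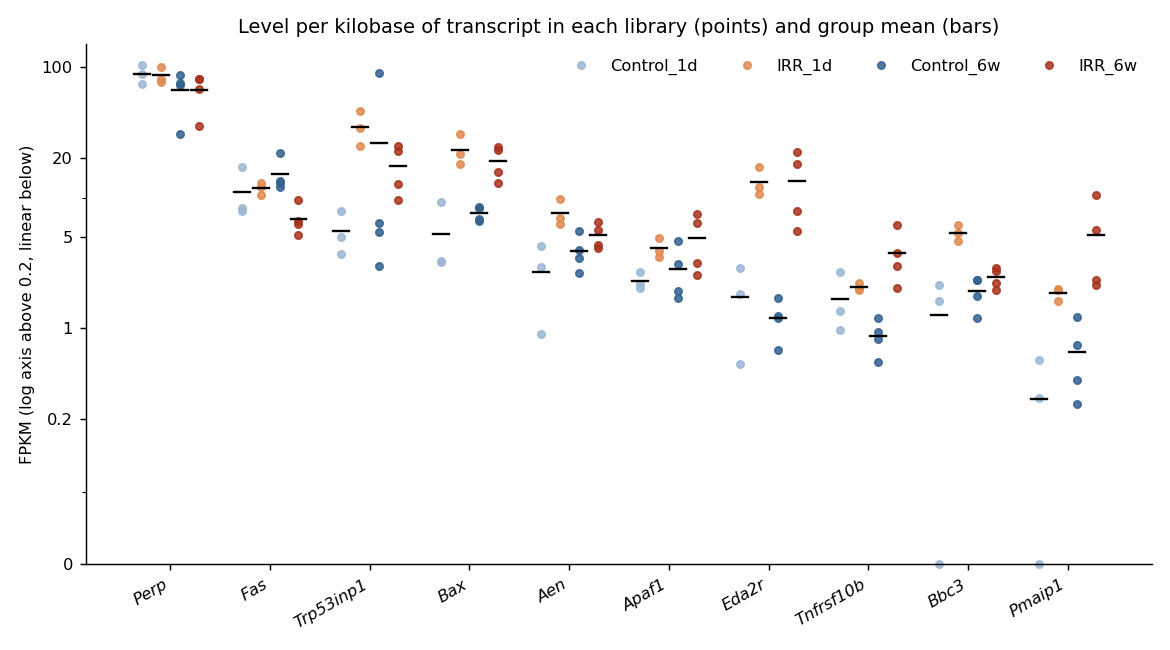
FPKM of each gene in each library (points) with the group mean (bars), genes ordered by their mean in Control_1d. The y axis is logarithmic above 0.2 FPKM and linear below. Perp is highest in all 4 groups by its mean, and the irradiated points of Eda2r and Bax lie above their controls.

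Between the time points, none of the 10 genes passed in control hearts (0 of 10, background 0%) or in irradiated hearts (0 of 10, background 0.0374%) in edgeR with adjusted p. Without adjustment 1 passed in controls (background 3.75%), *Trp53inp1* at 2.24 (SE 0.957, edgeR adjusted p = 0.902), with Control_6w replicate 3 at 582 CPM among its controls, and 0 in irradiated hearts (background 3.85%). DESeq2 on all libraries called 0 in controls (background 0.128%) and 0 in irradiated hearts (background 0.969%). In irradiated hearts with TMM scaling, *Bbc3*, *Fas* and *Trp53inp1* were lower at 6 weeks than at 1 day in every library. Their log2 fold changes were -1.14, -0.76 and -1.01 (3 of 10 lower without overlap, background 3.84%). *Pmaip1* was higher in every library (1 of 10, background 5.47%). Scaled by library totals, *Fas* overlapped (from 15.15 CPM in IRR_1d, up to 20.4 CPM in IRR_6w). So did *Trp53inp1* (from 154 CPM in IRR_1d, up to 200 CPM in IRR_6w). With that scaling *Tnfrsf10b* was higher in every library (at most 12.6 CPM in IRR_1d, from 13.1 CPM in IRR_6w). *Bbc3* and *Pmaip1* were separate with both scalings.

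Other p53 targets, a list of 26 genes chosen with earlier results of these data known, were tested in the same fit. Their counts beside the background are therefore a description and not independent support. Of the 26, 4 passed at 1 day, all higher (background 0.0249%). They were *Zfp365* (4.73, SE 0.544, edgeR adjusted p = 0.0067), *Sesn2* (3.16, SE 0.428, adjusted p = 0.0235), *Dcxr* (2.60, SE 0.375, adjusted p = 0.0316) and *Ephx1* (2.53, SE 0.377, adjusted p = 0.0349). With all libraries in the fit, these were the only genes called at 1 day. None (0) of all genes passed without Control_1d replicate 1, without Control_1d replicate 2 or without the 4 libraries with many genes at 0 counts. Leaving out IRR_1d replicate 1, 2 or 3 in turn left 1 gene of all called. At 6 weeks 2 of 26 passed (background 0.256%), *Zfp365* (3.0, SE 0.434, adjusted p = 0.0188) and *Zmat3* (2.10, SE 0.351, adjusted p = 0.0252). No gene of all those tested (0) passed at 6 weeks when Control_6w replicate 1 or 2, or IRR_6w replicate 3 or 4, was left out. For the average 7 of 26 passed (background 0.281%), the 5 genes named above with *Gdf15* (3.94, SE 0.623, adjusted p = 0.0164) and *Cdkn1a* (2.11, SE 0.291, adjusted p = 0.00833). *Sesn2* limits mTORC1 signaling under stress, *Ephx1* is a detoxifying epoxide hydrolase, and *Cdkn1a* encodes the cell cycle inhibitor p21. *Cdkn1a* was at 37.5 ± 18.1, 204 ± 43.6, 68.2 ± 28.6 and 232 ± 61.4 CPM (SD, n = 3, 3, 4 and 4). DESeq2 called 8 of the 26 at 1 day (background 0.191%), 6 at 6 weeks (background 2.11%) and 8 for the average (background 1.29%), all higher. With all libraries in the fit, the list's median log2 fold change was 0.85 at 1 day and 0.28 at 6 weeks. The highest Control_6w library stood far above the median of the 4 controls in *Phlda3* (91.3 against 19.4 CPM) and *Gtse1* (17.7 against 1.18 CPM).

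Of p53 itself and its regulators, 12 of 13 genes were tested and none (0) passed in any comparison in edgeR or DESeq2 with adjusted p. The background was at most 0.281% in edgeR and 2.11% in DESeq2. Without adjustment and with the fold limit, 0 passed at 1 day (background 2.23%) and 1 at 6 weeks (background 5.43%), *Trp63* (-3.64, SE 1.67, edgeR adjusted p = 0.555). That value rests on Control_6w replicate 3, with 445 counts of *Trp63* (25.3 CPM) against a median of 0.647 CPM over the 4 controls and a mean of 0.533 CPM in IRR_6w. *Trp53* had a log2 fold change of -0.49 at 1 day (SE 0.357) and 0.18 at 6 weeks (SE 0.307). *Mdm2*, which encodes the ubiquitin ligase for p53, had a log2 fold change of 0.67 at 1 day (SE 0.256, edgeR adjusted p = 1), from 84.8 ± 17.5 to 135 ± 21.5 CPM without overlap, and of 0.06 at 6 weeks (SE 0.221). At 6 weeks the smallest p of this list was that of *Atm*, the kinase that senses double-strand breaks (0.82, SE 0.328, edgeR adjusted p = 0.46).

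None (0) passed of 8 other death-promoting BCL2 family genes or of 6 tested survival genes of that family. Nor did any (0) of 16 caspase and mitochondrial pathway genes or of 11 tested death receptor pathway genes. This held at 1 day, at 6 weeks and for the average, in both edgeR and DESeq2. The background was 0.0249%, 0.256% and 0.281% in edgeR, and 0.191%, 2.11% and 1.29% in DESeq2, in that order. With shares this low, 0 calls in lists of this size do not set them apart from all genes. Without adjustment and with the fold limit, these 4 lists had 0 genes at 1 day (background 2.23%) and 2 at 6 weeks (background 5.43%). The 2 were 1 of the 8 other death-promoting genes and 1 of the 16 caspase and mitochondrial pathway genes. So few genes do not set these lists apart from the background. Those 2 were *Hrk* (-3.59, SE 1.56, edgeR adjusted p = 0.52) and *Diablo*, which encodes the IAP antagonist SMAC (-1.03, SE 0.388, edgeR adjusted p = 0.41), both lower. *Hrk* was near the floor, with 7 to 22 counts in Control_6w and 0 to 3 in IRR_6w. It also reached 0 counts in both groups of 1 day. IRR_6w replicates 3 and 4 are among the libraries with many genes at 0 counts. *Bcl2l1*, which encodes the survival protein BCL-XL, had a log2 fold change of 0.87 at 1 day (SE 0.342, edgeR adjusted p = 1) with no overlap between the groups. In the death receptor list the smallest p at 6 weeks was that of *Tnfrsf1a* (0.49, SE 0.234, edgeR adjusted p = 0.581), without overlap.

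The medians of these lists at 1 day and 6 weeks were 0.02 and -0.45 for the other death-promoting genes, 0.48 and 0.28 for the survival genes, -0.06 and -0.28 for the caspase list and 0.16 and 0.12 for the death receptor list. The 10 genes had 1.80 and 0.60 in the same comparisons. Without Control_6w replicate 3 the 6-week medians were 1.26 for the 10 genes, 0.0577 for the other death-promoting genes, 0.15 for the survival genes, 0.0806 for the caspase list and 0.37 for the death receptor list, so that 2 of these lists changed sign.

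**Figure D5:**
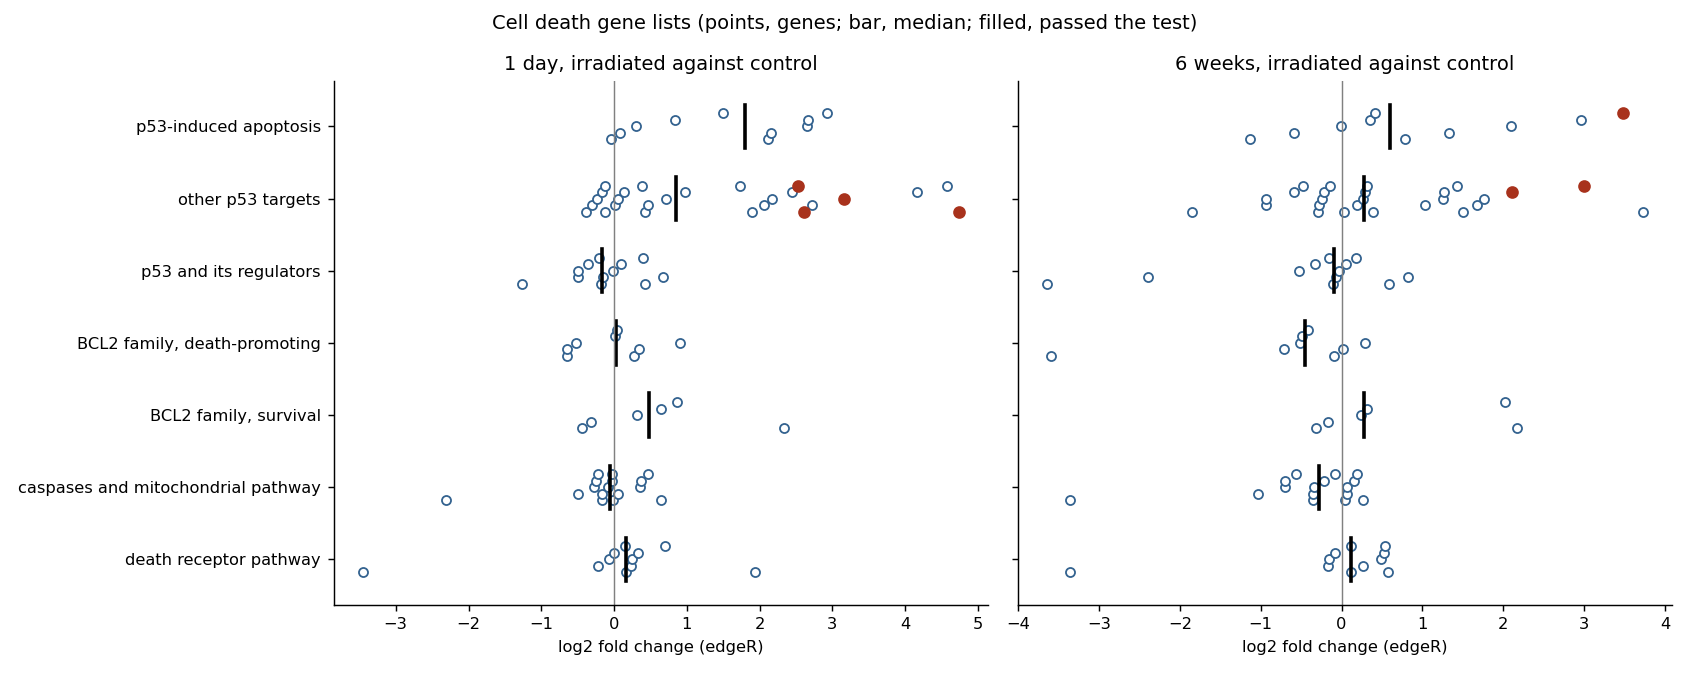
Log2 fold change of irradiated against control hearts for the genes of each list at 1 day (left) and 6 weeks (right). Points are genes, filled where they passed the test over all genes, and bars are list medians. All lists were chosen with earlier results of these data known. The passing points lie in the 2 lists of p53 targets, with 0.0249% of all genes passing at 1 day and 0.256% at 6 weeks. The medians of the caspase list are -0.06 and -0.28.

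Across the 14 libraries, which share the irradiation difference, the genes most like each member were named as a description. Pearson's r of log2(CPM + 1) was 0.921 between *Eda2r* and *Gdf15*, 0.888 between *Bax* and *Sesn2* and 0.906 between *Pmaip1* and both *Zmat3* and *Clca2*. Partners close behind were *Lacc1* (0.915) and *Cd300ld4* (0.909) for *Eda2r*, *Homer3* (0.877) and *Gdf15* (0.874) for *Bax*, and *Tfec* (0.897) for *Pmaip1*. Of these partners, only *Gdf15*, *Sesn2* and *Zmat3* are on the list of other p53 targets. *Perp* was most like *Ccng1* (0.967), also on that list, followed by *Pkia* and *Cacna2d1* (both 0.959), which are not. *Tnfrsf10b* was most like *Maf* (0.955) and *Ddx60* (0.954), and *Trp53inp1* was most like *Laptm5* (0.901). For the others the leading partner was *Cdc42bpg* for *Aen* (0.92), *Csnk1g1* for *Apaf1* (0.932), *Sac3d1* for *Bbc3* (0.908) and *Pogz* for *Fas* (0.869). Among the 10 genes themselves r ranged from -0.67 (*Fas* and *Eda2r*) to 0.93 (*Bbc3* and *Aen*).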

How the data were processed

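The authors checked the reads with FastQC 0.11.8, trimmed them with Trim Galore 0.6.1 and aligned them to mm10 with STAR 2.5.0a, per the labels. Reads per gene were counted by the authors with HTSeq, who deposited whole-number counts that were not normalized, beside a length for each gene as another column. Strandedness, counting mode and annotation release are not given in the sources used here. A wrong strand or multimapping rule would change counts of overlapping genes.

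The 10 genes, the pathway lists and the 2 sets of libraries left out were chosen with earlier results of these data known. Counts of 54532 genes were filtered with filterByExpr and tested with edgeR 4.0.16 in R 4.3.3 (TMM, quasi-likelihood, 4 groups in 1 model with 14 libraries). A call needed an adjusted p under 0.05 (Benjamini and Hochberg, 16034 genes) with a fold outside 0.5 to 2. DESeq2 1.42.0, limma 3.58.1, library totals, no filter, pairwise fits, a replicate block and leaving out libraries were alternatives. Exact permutation tests were two-sided, on log2(CPM + 1), within time points, and 3 against 3 mice cannot go below p = 0.1. By counting alone, 0 counts allow up to 3 at 95% confidence. The labels do not say whether libraries differ in batch.

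All 10 members were named. Of other lists, every gene called and up to 3 genes with the smallest p were eligible, with Cdkn1a, Trp53 and Mdm2. Partners were the 3 genes with the highest r. No 2 libraries held identical values. Promoter windows came from RefSeq (GRCm38.p6) and overlaps from GENCODE M21, in which 8 of the 10 genes had the coordinates of the count table. On simulated counts of 15669 genes with 200 changed by a log2 fold change of 2 with irradiation, edgeR called 44 of them at 1 day, 78 at 6 weeks and 109 for the average, with 1, 4 and 8 unchanged genes.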

Additional observations from a re-analysis of the deposited data

Results flagged for a closer look

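Of 20 sets of 4 libraries (10 genes in Control_6w and in IRR_6w), 2 had a sample far from the others, and chance gives about 1 in 20. Both were Control_6w replicate 3. *Trp53inp1* was at 582 CPM there and at most 41.0 CPM in the other 3 controls, a gap of 0.962 of the group's range, and *Fas* was at 39.7 against at most 23.95 CPM, a gap of 0.883, both above Dixon's 95% limit for 4 samples. The thymocyte markers of that library summed to 2686 CPM, and their part in both values was not tested.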

How the results depend on the processing

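At 1 day the number of the 10 genes called (0 in edgeR) was 6 at an unadjusted p, 2 in DESeq2 on all libraries, 3 in pairwise DESeq2, 1 without a filter on low counts and 0 to 1 when each library was left out (1 without Control_1d replicate 3 or without Control_6w replicate 3). At 6 weeks (1) it was 5 at an unadjusted p, 4 in both DESeq2 fits, 2 without a filter, 0 with the replicate block, 3 without the 3 libraries with transcripts of other tissues, 0 without the 4 libraries with many genes at 0 counts and 0 to 2 when each library was left out. For the average (2) it was 4 at an unadjusted p, 4 in DESeq2, 3 without a filter, 3 without the 3 libraries with transcripts of other tissues, 1 without those 4 libraries and 1 to 3 when each library was left out. Over all genes the calls moved too. At 1 day (4), 6 weeks (41) and for the average (45) they were 0 to 11, 0 to 98 and 9 to 56 when each library was left out, and 0, 0 and 6 without the 4 libraries with many genes at 0 counts. At 1 day they were 33 in DESeq2, 59 in pairwise DESeq2 and 8 without a filter. At 6 weeks they were 344 in DESeq2, 358 in pairwise DESeq2, 13 in pairwise edgeR and 83 with library totals. They were also 180 without the 3 libraries with transcripts of other tissues, 138 without a filter and 15 with the replicate block. For the average they were 204 in DESeq2, 80 without a filter and 23 with the replicate block. Without the 3 Control_6w libraries with testis germ cell transcripts, chosen after seeing the data, the 10 genes had 0 calls at 6 weeks and 0 for the average, as had all genes, with 1 control left at 6 weeks. In the remaining comparisons of the 10 genes (0 each), the controls had 1 and the change in effect 3 at an unadjusted p, and IRR_6w against IRR_1d had 1 in pairwise DESeq2 (376 of all genes). Causes were not tested. Deviations from the group means had a mean r of -0.02 over 19 same-numbered pairs of libraries (3 over 0.1). Over 54 other-numbered pairs the mean r was 0.0176 (20 over 0.1). With 3 or 4 libraries per group, these values cannot show whether equal replicate numbers share a batch. The replicate block left 2 genes called for the average.

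Of 799 log2 fold changes of single genes under the alternatives, 735 kept direction and call, 23 gained a call, 13 lost it and 28 changed sign, 21 of them of *Perp*. *Perp* was 0.0103 at 1 day without the 3 libraries with transcripts of other tissues and 0.0727 without the 4 with many genes at 0 counts (-0.139 to 0.0912 when each library was left out). At 6 weeks it was 0.0107 in DESeq2, 0.0254 in limma, 0.278 with library totals, 0.0094 with median-of-ratios factors and 0.0311 with the replicate block (-0.24 to 0.21 when each library was left out), and for the average 0.13 with library totals (-0.143 to 0.0836). Its permutation p turned with the sign, to 1 at 1 day and 0.54 for both times with library totals. *Fas* at 1 day ranged from -0.0755 to 0.547 when each library was left out. *Trp53inp1* at 6 weeks was 0.71 in limma, 0.26 with the replicate block, 1.94 without the 3 libraries with transcripts of other tissues, 1.65 without the 3 controls with testis transcripts and -1.01 to 1.82 when each library was left out. Against TMM, scaling by library totals moved the median over all genes by 0.08 (1 day), 0.23 (6 weeks), 0.15 (average) and 0.32 (IRR_6w against IRR_1d).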
